A study of Mus musculus with 12 samples.

Results

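Fkbp5 and Nfil3 are 2 of the 556 genes that had a value in terminal ileum RNA of control and tylosin-exposed mice, raised with or without a microbiota. Both were chosen by values measured in these mice. Fkbp5 was among the genes with the largest fall in SPF control against GF control mice and had the smallest p of the tylosin comparison in GF mice, and Nfil3 was picked for its difference between SPF PAT and GF PAT mice. Their levels and differences below are therefore a description, with no p-value. There were 4 groups of 3 male C57BL/6 mice each. SPF (specific pathogen free) mice carried a microbiota and came from a colony bred from purchased stock, whereas GF (germ-free) mice had none and were bred in-house, so that colonization and breeding source cannot be told apart. PAT (pulsed antibiotic treatment) mice received 1 course of tylosin, a macrolide, from postnatal day 5 for 5 days at about 50 mg per kg per day, in the water of the nursing mother, and control mice received none. The age at sampling is week 7 in the labels and postnatal day 50 in the study, which is weeks after the drug had ended. Litter, assay batch and time of day at killing are not given in the sources used here, and the last of these bears on any gene with a daily rhythm.

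Fkbp5 encodes FKBP51, a co-chaperone that joins HSP90 in steroid receptor complexes and lowers the affinity of the glucocorticoid receptor for its hormone. The hormone-bound receptor switches Fkbp5 on through elements that lie mostly inside the gene, which closes a short feedback loop, and its transcript is widely used as a readout of glucocorticoid action. Nfil3, also called E4BP4, encodes a basic leucine zipper repressor that binds the D-box elements of clock-controlled genes and is itself held down by the clock repressor REV-ERB alpha, the product of Nr1d1. In the mouse small intestine its epithelial level follows the microbiota through a relay of myeloid cells, innate lymphoid cells, IL-22 and STAT3, and in blood cell precursors it is needed for natural killer cells, innate lymphoid cells and some dendritic cells.

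The bases upstream of both genes are shown because the pair is named after 2 regulators that read DNA, the hormone receptor and the clock. The promoters were matched by symbol in the RefSeq table of GRCm38.p6, and the 250 bases before the start of each transcript are printed in the direction of transcription. The Fkbp5 window is chr17:28486150-28486399 on the minus strand and that of Nfil3 is chr13:52981040-52981289 on the minus strand, where other transcripts of Nfil3 start further upstream. Capitals mark an E-box (CACGTG, the element of CLOCK and BMAL1) in Fkbp5 and a REV-ERB half-site (AGGTCA, here on the opposite strand as TGACCT) in Nfil3.
Fkbp5: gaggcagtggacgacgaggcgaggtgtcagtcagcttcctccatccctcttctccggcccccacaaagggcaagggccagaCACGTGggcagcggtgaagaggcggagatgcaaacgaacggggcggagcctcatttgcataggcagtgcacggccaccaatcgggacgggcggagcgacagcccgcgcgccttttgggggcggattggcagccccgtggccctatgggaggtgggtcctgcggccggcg
Nfil3: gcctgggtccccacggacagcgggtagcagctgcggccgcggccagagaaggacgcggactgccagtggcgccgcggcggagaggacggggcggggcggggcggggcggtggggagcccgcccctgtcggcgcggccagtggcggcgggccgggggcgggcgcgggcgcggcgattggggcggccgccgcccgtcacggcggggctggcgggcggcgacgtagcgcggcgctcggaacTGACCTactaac
The E-box began 169 bases before the Fkbp5 start and the REV-ERB half-site began 12 bases before the Nfil3 start. An E-box was found in 6.02% of 32851 promoters of this length and a REV-ERB half-site on either strand in 14% of them. The glucocorticoid response half-site (AGAACA or TGTTCT, in 16.1% of the promoters) and the D-box (TTATGTAA, TTACATAA or TTACGTAA, in 0.931%) were in neither window. The windows were rich in G and C, at 68% for Fkbp5 and 81.6% for Nfil3 beside a median of 52.4% over the promoters. These matches describe letters only, and the RNA counts do not bear on binding.

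RNA was counted with colour-coded hybridization probes (NanoString nCounter), without sequencing, and the values are log2 of normalized counts, so that 1 unit is a doubling. The total count was 806043 to 923395 in the SPF control mice and 600308 to 681370 in the other 9 mice, and its part in the results was not tested. Of 12 epithelial markers listed, 9 were measured, among them Pigr, Itln1 and Ccl25 of the small intestine. Their summed normalized count was 148558 to 180423 in SPF control, 135648 to 216543 in SPF PAT, 137006 to 158039 in GF control and 117842 to 133695 in GF PAT mice. The summed leukocyte markers (12 of 12 measured) reached 3520 to 8745 in SPF control, 1936 to 7011 in SPF PAT, 1801 to 4650 in GF control and 3049 to 6736 in GF PAT mice. Those of stroma and endothelium (4 of 5 measured) reached 1503 to 1702, 1674 to 2142, 1852 to 2288 and 1808 to 1986 in the same order. None of the measured markers was at 0 in any mouse. In whole ileum, fewer cells of a type and less RNA per cell cannot be told apart.

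Fkbp5 was low in SPF control mice, high in GF control mice and between these in both PAT groups. The SPF control mice 2, 7 and 8 had log2 levels of 7.06, 7.33 and 7.44 (mean 7.28 ± 0.20, SD, n = 3). The GF control mice 37, 38 and 39 stood at 9.65, 9.86 and 9.53 (9.68 ± 0.17). As normalized counts these were 133.4, 160.8 and 173.9 against 804.8, 928.8 and 738.1. The lowest GF control mouse lay 2.09 above the highest SPF control mouse. After tylosin the 2 kinds of mice met. The SPF PAT mice 21, 26 and 27 had 8.95, 8.88 and 8.67 (8.84 ± 0.15), and the GF PAT mice 41, 42 and 43 had 8.62, 8.88 and 8.94 (8.81 ± 0.17). The PAT groups overlapped each other and neither of the control groups. Counting error was smaller than these steps. The lowest Fkbp5 count, 159, carries a 95% Poisson half-width of 0.23 on the log2 scale, and the highest, 792, one of 0.10. Such intervals cover counting error only.

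Nfil3 was ordered differently, with both SPF groups above both GF groups and each PAT group below its own control. In SPF control mice 2, 7 and 8 its log2 level was 9.68, 9.28 and 9.71 (mean 9.56 ± 0.24, SD, n = 3). In SPF PAT mice 21, 26 and 27 it was 8.68, 8.91 and 8.59 (8.73 ± 0.17). In GF control mice 37, 38 and 39 it was 7.84, 7.74 and 7.41 (7.66 ± 0.23). The GF PAT mice 41, 42 and 43 were lowest, at 7.21, 6.71 and 6.86 (6.92 ± 0.26). No neighbouring groups in this order overlapped, though GF control mouse 39 lay only 0.19 above GF PAT mouse 41. As normalized counts the range ran from 104.4 in GF PAT mouse 42 to 837 in SPF control mouse 8. The SD within groups was 0.171 for Fkbp5 and 0.225 for Nfil3, beside 0.301 for the median gene. This is not a like comparison, since the pair was picked by values of these mice and the panel includes genes with low counts.

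**Figure D1:**
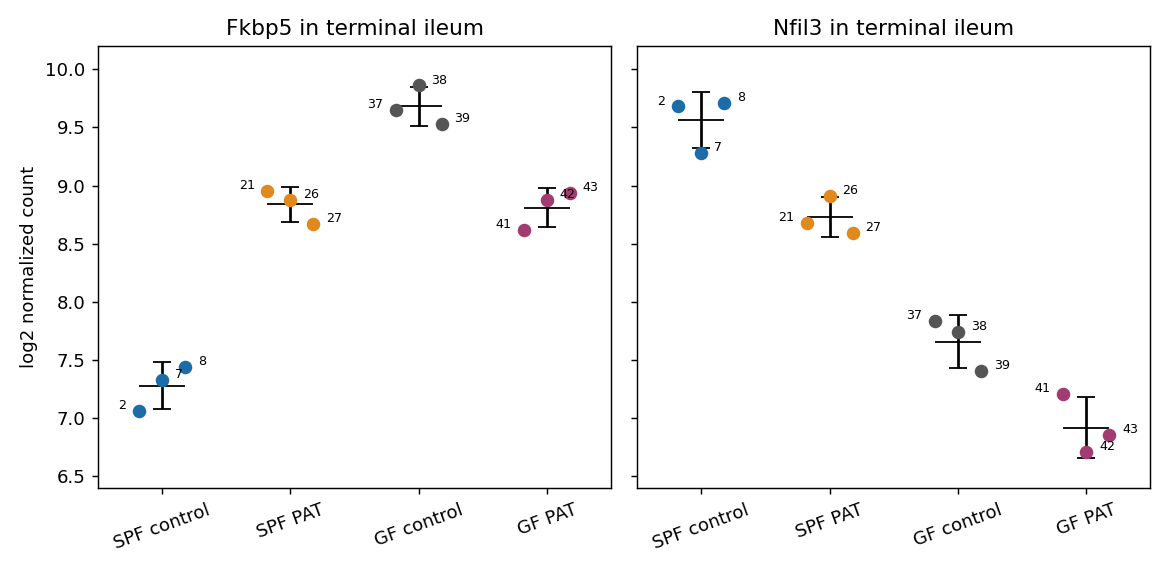
Log2 normalized count of Fkbp5 (left) and Nfil3 (right) in each of 12 mice, labelled with the mouse number, by group; the bar and whiskers are the mean and SD of 3 mice. Fkbp5 runs from 7.06 in an SPF control mouse to 9.86 in a GF control mouse with the PAT groups between, and Nfil3 steps down from SPF control to GF PAT mice.

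The comparison of the control groups asks what the microbiota does to these transcripts without the drug. Fkbp5 was lower in SPF than in GF control mice, with a difference of -2.40 log2 units (standard error 0.15, 5.29-fold), and Nfil3 was higher by 1.89 (standard error 0.19, 3.71-fold). Fkbp5 held the 2nd lowest place of 556 genes in this comparison and Nfil3 the 38th highest, beside a median of 0.08 over the panel. Neither gene had overlapping mice here, as was the case for 290 of the 556 genes (52.2%). In limma, 108 genes (19.4%) rose and 126 (22.7%) fell in SPF control against GF control mice at an adjusted p under 0.05. The split between higher and lower turned on the scaling, with 57 against 169 genes after median centring and 72 against 137 after quantile normalization.

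In SPF PAT mice both transcripts lay between the SPF control and the GF control level. Fkbp5 was higher in SPF PAT than in SPF control mice by 1.56 (standard error 0.15, 2.94-fold, the 5th highest of the panel). Nfil3 was lower, with a difference of -0.83 (standard error 0.19, 1.78-fold). The gap between the nearest mice of the groups was 1.23 for Fkbp5 and 0.38 for Nfil3, and 228 genes (41%) had groups that did not overlap. At the threshold, 78 genes (14%) rose and 68 (12.2%) fell in SPF PAT against SPF control mice, beside 76 and 30 after median centring and 90 and 49 after quantile normalization. Along the way from the SPF control to the GF control mean, SPF PAT mice stood at 64.9% for Fkbp5 (62.4 to 68.3% with 1 mouse left out in turn) and at 43.9% for Nfil3 (40.2 to 48.7%). SPF PAT mice still differed from GF control mice by -0.84 for Fkbp5 (1.8-fold) and by 1.06 for Nfil3 (2.09-fold). For both genes these groups did not overlap, as for 77 genes of the panel (13.8%). The Nfil3 difference between SPF PAT and SPF control mice was -0.48 after median centring, which took its place along the way to 32.7%.

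In GF mice, which carried no bacteria, both transcripts were lower after tylosin. Fkbp5 differed by -0.87 between GF PAT and GF control mice (standard error 0.15, 1.82-fold) and Nfil3 by -0.74 (standard error 0.19, 1.67-fold). They held the 5th and the 7th lowest place of the panel. The groups did not overlap for either gene, as for 67 genes (12.1%). limma called no gene in this comparison, neither higher (0%) nor lower (0%) at an adjusted p under 0.05, with 28 genes at an unadjusted p under 0.05, and Tukey HSD after an analysis of variance gave 0 genes adjusted and 12 unadjusted. The gap between groups was 0.59 for Fkbp5 and 0.19 for Nfil3, the latter less than the SD within a group.

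The drug difference of Fkbp5 thus had opposite signs in the 2 settings and that of Nfil3 the same sign. The difference in SPF mice less that in GF mice was 2.42 for Fkbp5 (standard error 0.21), the 2nd highest of the panel, and -0.09 for Nfil3 (standard error 0.26). Over all genes, 55 (9.89%) had a larger and 40 (7.19%) a smaller tylosin effect in SPF than in GF mice in limma, or 60 and 19 after median centring. Nfil3's value turned to 0.45 with median centring, which moved the median of the panel from 0.01 to 0.55.

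Between the PAT groups the pair came apart. Fkbp5 differed by 0.02 (standard error 0.15), with overlapping mice. Nfil3 stood 1.80 higher in the SPF PAT than the GF PAT group (standard error 0.19, 3.49-fold, the 3rd highest of the panel), close to its difference between the control groups. Its nearest mice were 1.38 apart, and 76 genes (13.7%) had groups that did not overlap. In limma 5 genes (0.899%) were higher, namely Bst1, Nfil3, Pla2g2a, Saa1_2 and Tnfrsf17, and 3 (0.54%) were lower, namely Abcb1a, Phlpp2 and Tnfsf15. Nfil3 is in this set by the way it was picked, and the others outside the gene lists and nearest patterns were named after their values were seen.

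**Figure D2:**
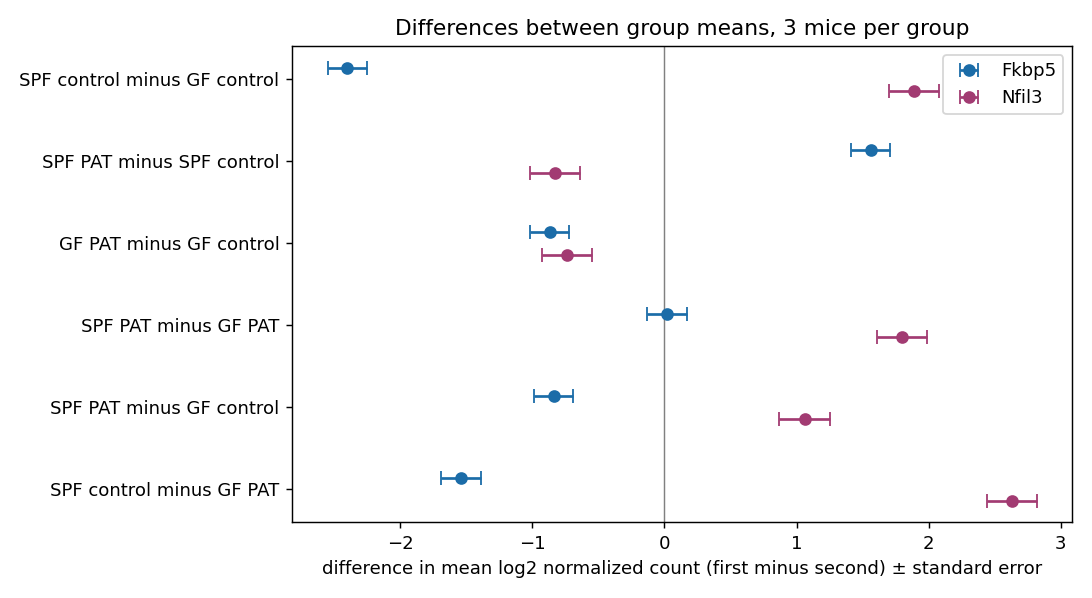
Difference in mean log2 normalized count of Fkbp5 and Nfil3 for 6 pairs of groups, first minus second, with the standard error of the limma fit over 12 mice. Fkbp5 is at -2.40 and Nfil3 at 1.89 between the control groups, both are below 0 for GF PAT minus GF control, and Fkbp5 is at 0.02 between the PAT groups.

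The log2 ratio of Fkbp5 to Nfil3 within a mouse does not depend on how the mice were scaled to each other. Its zero carries no meaning, since the probes of the genes differ, and it is read between mice only. It was -2.62, -1.95 and -2.27 in SPF control mice 2, 7 and 8 (mean -2.28 ± 0.33, SD, n = 3) and 1.81, 2.11 and 2.12 in GF control mice 37, 38 and 39 (2.02 ± 0.18). SPF PAT mice 21, 26 and 27 lay between, at 0.27, -0.03 and 0.08 (0.11 ± 0.15). GF PAT mice 41, 42 and 43 had 1.41, 2.18 and 2.08 (1.89 ± 0.42) and overlapped GF control mice. The ratio thus parted SPF control, SPF PAT and GF mice, and did not part GF mice by the drug. Both genes were picked by values of these groups, so this is a description and no support. Single genes had groups that did not overlap for 52.2% of the panel between the control groups and 41% between the SPF groups. The shares were 13.8% for SPF PAT against GF control mice, 13.7% for the PAT groups and 12.1% for the GF groups.

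**Figure D3:**
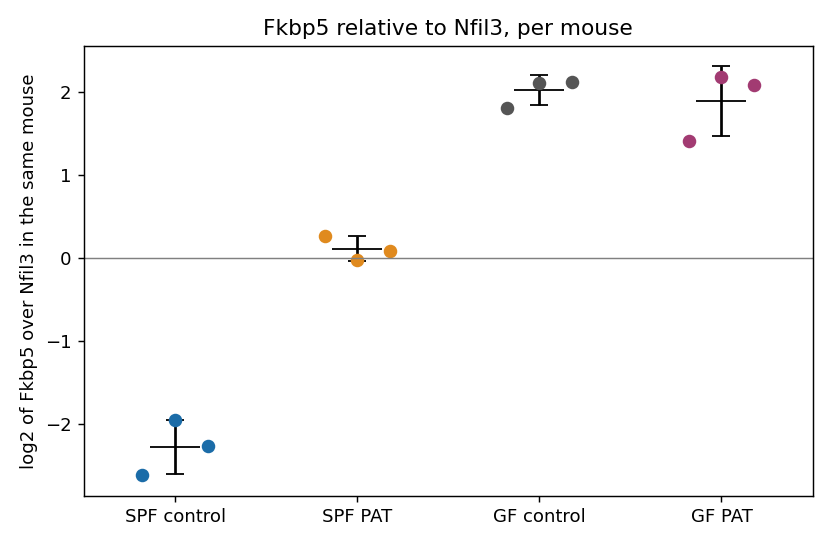
Log2 of the Fkbp5 count over the Nfil3 count in the same mouse, by group, for 12 mice; the bar and whiskers are the mean and SD of 3 mice. SPF control mice lie from -2.62 to -1.95, SPF PAT mice from -0.03 to 0.27, and the 6 GF mice from 1.41 to 2.18.

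Few partners of Fkbp5 in the receptor complex were on the panel. The receptor Nr3c1, its HSP90 chaperones, Tsc22d3 and Zbtb16 were not measured here. Of 21 listed genes that glucocorticoids induce, 9 were measured, and Cd163, a haemoglobin scavenger receptor of macrophages, was the only one past the threshold between the control groups. It fell by 1.02 in SPF against GF control mice (standard error 0.31, adjusted p = 0.0229). This call was lost without SPF control mouse 2, SPF control mouse 7 or GF control mouse 39 (highest adjusted p = 0.0892) and under Tukey HSD (adjusted p = 0.144). Median centring kept it (adjusted p = 0.0144), with 2 of the 9 genes falling and none rising. With 1 mouse left out in turn, 0 to 2 rose and 0 to 1 fell. On the deposited values the median of the 9 genes was 0.17 beside 0.08 over the panel. None of the 9 passed in SPF PAT against SPF control mice (median -0.06) or in any other comparison. Nfkbia, which encodes the inhibitor of NF-kappaB, differed by 0.26 between the control groups (adjusted p = 0.209) and by -0.36 between SPF PAT and SPF control mice (adjusted p = 0.115). Cebpb, a transcription factor of the acute phase, differed by -0.25 (adjusted p = 0.296) and 0.18 (adjusted p = 0.459). On the deposited values the listed genes thus gave no common movement with Fkbp5 past the threshold. Whether glucocorticoid action differed between the groups was not tested.

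Genes whose products FKBP51 is known to bind did pass. Of 14 listed receptor and chaperone genes, 5 were measured, with none of them a steroid receptor. Phlpp1 and Phlpp2 encode phosphatases that FKBP51 brings to Akt, and Chuk, Ikbkb and Ikbkg encode subunits of the IKK complex. Of the 5, 4 fell in SPF against GF control mice and none rose (median -0.64), beside 22.7% and 19.4% of the panel. Phlpp2 fell by 1.21 (standard error 0.14, adjusted p = 0.000295), Chuk by 0.84 (adjusted p = 0.00363) and Ikbkg by 0.64 (adjusted p = 0.00364), and each kept its call with any 1 of the 12 mice left out. In SPF PAT against SPF control mice 3 of the 5 rose (median 0.47, with 14% of the panel rising), namely Phlpp2 by 0.53 (adjusted p = 0.0243), Ikbkg by 0.49 (adjusted p = 0.0225) and Ikbkb by 0.35 (adjusted p = 0.0447). Tukey HSD called none of these 3. Phlpp2 and Ikbkg also lost the call without SPF PAT mouse 26 or 27 or SPF control mouse 2 or 7 (highest adjusted p = 0.0957 and 0.0815), and Ikbkb without 10 of the 12 mice in turn (highest adjusted p = 0.139) and after median centring (adjusted p = 0.0545). Between the PAT groups Phlpp2 was lower in SPF mice by -0.89 (adjusted p = 0.0203), a call lost without SPF PAT mouse 26 or 27 or any 1 of the GF PAT mice (highest adjusted p = 0.0791), after median centring (adjusted p = 0.384) and under Tukey HSD.

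All 20 listed transcripts that glucocorticoids repress were measured, 10 of them at a mean normalized count under 20. In SPF against GF control mice 7 rose and none fell (median 0.65), beside 19.4% and 22.7% of the panel, or 5 and 1 after median centring. Ccl5, a chemokine of cytotoxic lymphocytes, rose by 2.87 (standard error 0.29, adjusted p = 0.000156). Nos2, the inducible nitric oxide synthase, rose by 2.85 (standard error 0.33, adjusted p = 0.000277), and Ccl20, an epithelial chemokine, by 2.25 (adjusted p = 0.00454). In SPF PAT against SPF control mice 5 fell and none rose (median -0.67), beside 12.2% and 14% of the panel, or 3 to 8 fell with 1 mouse left out in turn. Ccl5 fell by 1.97 (adjusted p = 0.00242), Nos2 fell by 1.75 (adjusted p = 0.00545) and Ccl20 fell by 1.51 (adjusted p = 0.0417). Ccl20 lost this call without 7 of the 12 mice in turn (highest adjusted p = 0.139), and the other 2 kept theirs. Leukocyte marker genes moved in the same comparisons, with 3 of 12 higher in SPF than in GF control mice (median 1.56, with 19.4% of the panel rising) and 3 of 12 lower in SPF PAT than in SPF control mice (median -1.38, with 12.2% of the panel falling). Their part in these values was not tested. In GF PAT against GF control mice none of the 20 passed (median 0.33 beside -0.00 over the panel).

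The clock itself could hardly be read. Of 18 listed clock genes and nuclear receptors, 3 were measured, and Nr1d1 and Arntl were not measured here. Pparg, a lipid-sensing receptor, fell by 1.51 in SPF against GF control mice (standard error 0.32, adjusted p = 0.00495) with its call kept in all 12 omissions, and Hif1a differed by -0.35 (adjusted p = 0.0947).

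The relay that carries microbial signals to Nfil3 was nearly complete, with 17 of 18 listed genes measured, 5 of them at a mean normalized count under 20, and Id2 not measured here. Between the control groups 4 rose in SPF mice, 3 fell and 10 did not pass (median 0.25), beside 19.4% and 22.7% of the panel, or 2 and 4 after median centring. Of the cytokines, 3 rose. Il22 rose by 2.34 (standard error 0.41, adjusted p = 0.00186), from log2 levels of 0.00 to 1.58 in GF control to 2.90 to 3.45 in SPF control mice, which are low counts. Il17a rose by 1.68 (adjusted p = 0.00531) and Il1b by 0.86 (adjusted p = 0.0212), the last a call lost without SPF control mouse 2 or GF control mouse 37 (highest adjusted p = 0.0644) and after median centring (adjusted p = 0.334). Among the sensors, Tlr2, a receptor for bacterial lipoproteins, rose by 0.78 (adjusted p = 0.0322). Of the 4 rises, Tukey HSD and median centring each kept 2, those of Il22 and Il17a. Tlr5, the flagellin receptor, fell by 0.92 (standard error 0.18, adjusted p = 0.00345), and Myd88, the adaptor of most Toll-like receptors, fell by 0.52 (standard error 0.13, adjusted p = 0.0107). Ahr, a receptor for dietary and microbial indoles, fell by 0.48 (adjusted p = 0.0174). This call was lost without SPF control mouse 7 or GF control mouse 38 or 39 (highest adjusted p = 0.0699) and under Tukey HSD (adjusted p = 0.0551). Stat3, whose product carries the IL-22 signal in the epithelium, differed by -0.17 (adjusted p = 0.317) and Il23a by 0.09 (adjusted p = 0.876).

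In SPF PAT against SPF control mice 2 of the 17 relay genes rose and 3 fell (median -0.18), beside 14% and 12.2% of the panel, or 2 and 1 after median centring, whereas Tukey HSD called none of them. Il22 fell by 1.87 (standard error 0.41, adjusted p = 0.0102) to a median log2 level of 1.26. Il17a fell by 1.38 (adjusted p = 0.0217), Tlr2 by 0.83 (adjusted p = 0.0402), and Tlr5 rose by 0.71 (adjusted p = 0.019). Il22 kept its call in all 12 omissions. Il17a lost it without SPF PAT mouse 26 or 27 or SPF control mouse 2 or 7, Tlr5 without SPF PAT mouse 26 or SPF control mouse 2 (highest adjusted p = 0.0649 and 0.0769), and Tlr2 without 8 of the 12 mice in turn (highest adjusted p = 0.136). Median centring ended the calls of Il17a (adjusted p = 0.057) and Tlr2 (adjusted p = 0.285). None passed between the GF groups or between the PAT groups. Il22, for one, differed by 0.97 between SPF PAT and GF PAT mice (standard error 0.41, adjusted p = 0.438), the comparison in which Nfil3 stood out.

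Of 21 genes listed for the lymphoid and dendritic cells that need Nfil3, 15 were measured, 4 of them at a mean normalized count under 20. The list is not confined to genes that mark these cells, since Il15 and Ncam1 are in it. In SPF against GF control mice 8 rose and 2 fell (median 0.61), beside the same 19.4% and 22.7%, or 3 and 3 after median centring. Gzmb and Gzma, granule proteases of cytotoxic cells, rose by 3.48 (standard error 0.25, adjusted p = 1.64e-05) and 2.84 (adjusted p = 0.000336). Klrd1, a natural killer receptor chain, rose by 1.33 (adjusted p = 0.00251). Il15, the survival cytokine of these cells, fell by 1.47 (standard error 0.13, adjusted p = 6.74e-05), and Ncam1 fell by 0.85 (adjusted p = 0.00735). All 5 kept their call with any 1 mouse left out. In SPF PAT against SPF control mice 7 fell and 2 rose (median -0.64), beside 12.2% and 14% of the panel. After median centring 3 fell and 1 rose, and with 1 mouse left out in turn 4 to 8 fell. Gzmb fell by 2.16 (adjusted p = 0.00082), Gzma fell by 2.01 (adjusted p = 0.00475), and Prf1, the pore protein perforin, fell by 1.48 (adjusted p = 0.019, lost without SPF PAT mouse 27 or SPF control mouse 2, highest adjusted p = 0.0706). Il15 rose by 1.11 (adjusted p = 0.00082) and Ncam1 by 0.63 (adjusted p = 0.0425, lost without 7 of the 12 mice in turn, highest adjusted p = 0.144, and after median centring, adjusted p = 0.0514). None passed in GF PAT against GF control or in SPF PAT against GF PAT mice. Some of the list, such as Gzmb and Gzma, are genes of T cells too. The T cell markers Cd3d and Cd3e rose by 1.93 (adjusted p = 0.00656) and 1.86 (adjusted p = 0.00595) in SPF against GF control mice. Tukey HSD ended both calls (adjusted p = 0.0551 and 0.0523). In SPF PAT against SPF control mice they differed by -1.38 (adjusted p = 0.044) and -1.40 (adjusted p = 0.0358). These calls were kept in 3 and 7 of the 12 omissions and lost under Tukey HSD (adjusted p = 0.24 and 0.208). Their part in the values of the list was not tested.

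**Figure D4:**
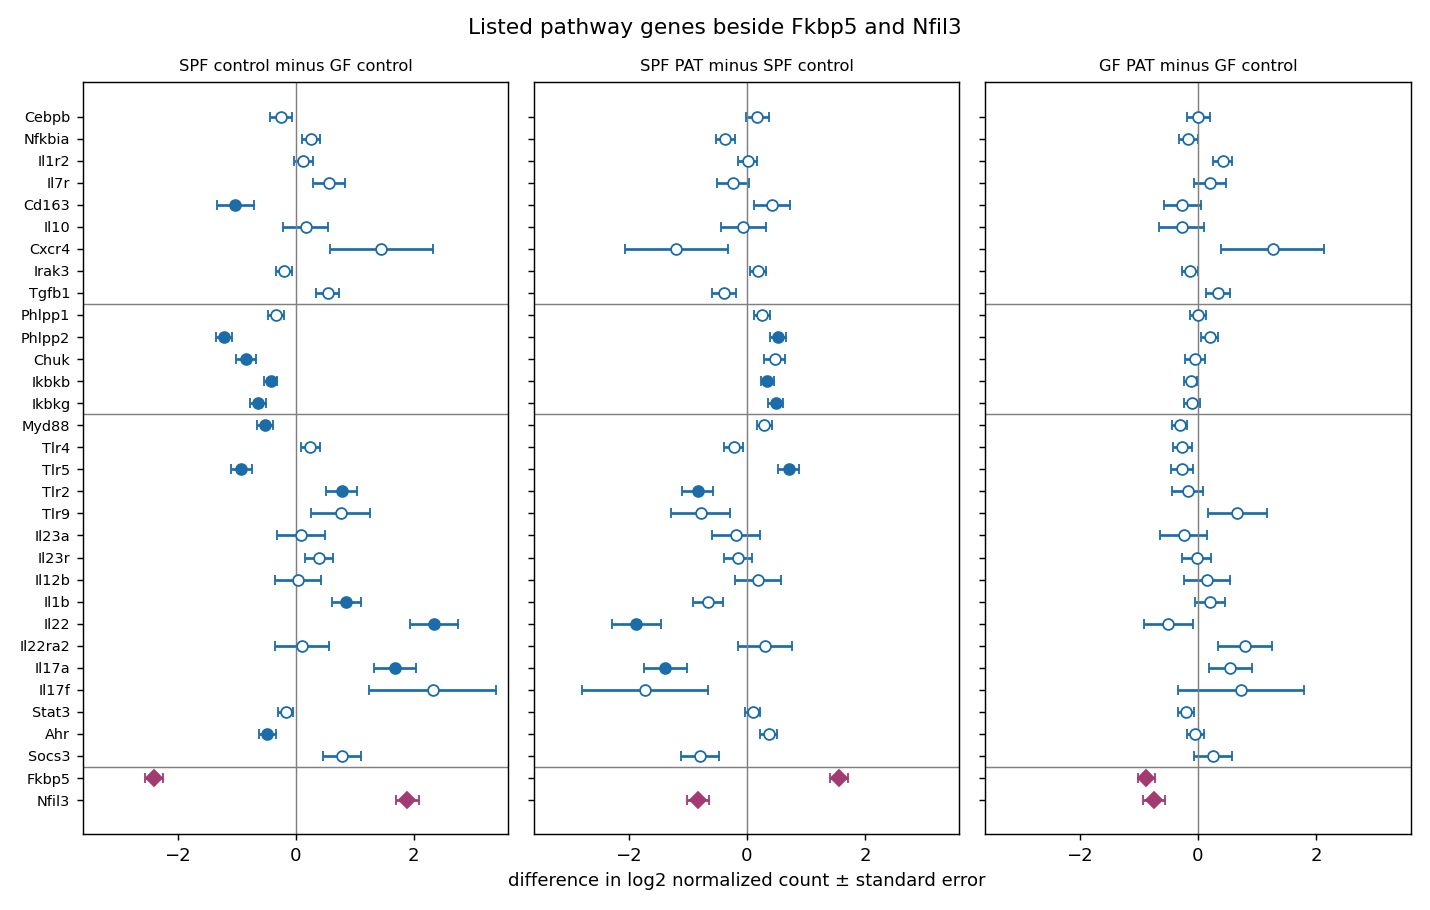
Difference in log2 normalized count with its standard error for the measured genes that glucocorticoids induce (top block), that bind FKBP51 (middle block) and that relay microbial signals to Nfil3 (bottom block of circles), with Fkbp5 and Nfil3 as diamonds, in 3 comparisons; filled circles had an adjusted p under 0.05 in limma, and 1 relay gene is not shown. In the left panel Fkbp5 lies at -2.40, below each of these genes, Nfil3 lies at 1.89, below Il22 at 2.34, and no circle is filled in the GF comparison on the right.

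The genes whose pattern lay nearest to each member were found over the 12 mice, among 444 genes with a mean normalized count of at least 20. Likeness was the root mean square difference between the log2 values, each gene centred on its own mean, so that a small value is a close match. The own spread of Fkbp5 on this scale was 0.88. Its nearest genes were Cxcl11, an interferon-induced chemokine, at 0.40, Il15 at 0.41 and Mme, a brush border peptidase, at 0.41. Maf, a transcription factor, followed at 0.45 and Dpp4, another brush border peptidase, at 0.46. By the way they were picked, they shared its low SPF control level, with differences of -2.31 to -1.18 between the control groups. They likewise shared its higher level in SPF PAT mice, by 0.70 to 1.66. They did not share its drop in GF PAT mice to the same extent, since their differences between GF PAT and GF control mice ran from -0.33 to 0.04 against -0.87 for Fkbp5. By this measure the closest match of all was a mirror image. Irf4, a transcription factor of plasma cells and T cells, lay 0.30 from Fkbp5 with the sign turned, with 2.44 between the control groups, -1.22 for tylosin in SPF mice and 0.93 in GF mice. Tap1, the peptide transporter of antigen presentation, and H2-Aa, a class II histocompatibility chain, followed at 0.35 and 0.37.

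Nfil3, with an own spread of 1.02, had less close neighbours. Tnfrsf17, the plasma cell receptor BCMA, lay at 0.52, Nos2 at 0.53, Cxcl9, an interferon-induced chemokine, at 0.56, Ccl5 at 0.57 and Nfkbiz, a nuclear regulator of NF-kappaB, at 0.59. Tnfrsf17 was the nearest in the comparison of the PAT groups, at 1.67 against 1.80 for Nfil3. In GF PAT against GF control mice the 5 neighbours differed by -0.32 to 0.08, beside -0.74 for Nfil3. With the sign turned, Tnfsf15, a cytokine of the tumour necrosis factor family, was closer, at 0.39, followed by Mme at 0.45 and Abcb1a, a drug efflux pump, at 0.48. The 2 members were not each other's mirror. At 0.74, Nfil3 ranked 101st among the turned neighbours of Fkbp5, and Fkbp5 ranked 21st among those of Nfil3.

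**Figure D5:**
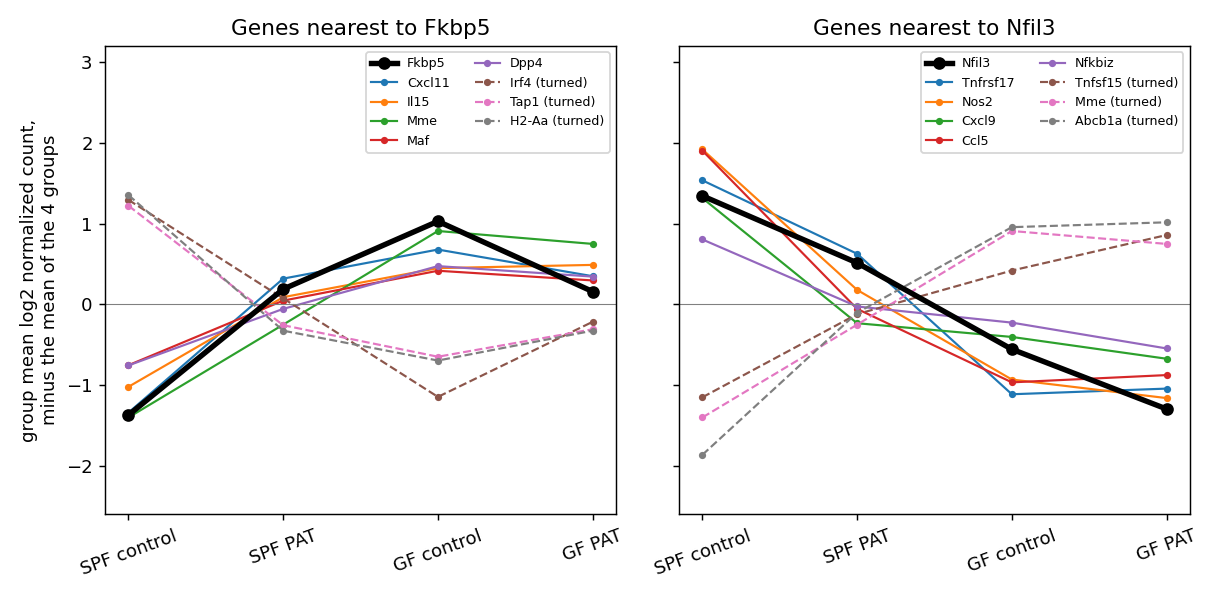
Group means of log2 normalized count, each gene less the mean of its 4 groups, for Fkbp5 (left) and Nfil3 (right) in black with their 5 nearest genes (solid) and the 3 genes nearest to their mirror image (dashed, marked turned in the legend, drawn as measured). The black Fkbp5 line drops from GF control to GF PAT mice by 0.87, whereas its 5 nearest genes change by -0.33 to 0.04.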

How the data were processed

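Ileal RNA of 12 mice was counted on the nCounter mouse immunology panel. Per the labels (the submitters' processing notes) and the methods, the authors normalized the counts with DESeq2 (version not given in the sources used here) and deposited log2 values for 556 genes, while 28 further entries hold no value. With 1 size factor per mouse the values gave whole counts within 0.01. Of the symbols, 537 were current in RefSeq, 16 older and 3 unmatched.

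Groups were taken from the labels. The deposited log2 values were fitted in limma 3.58.1 (R 4.3.3) with 1 mean per group and no covariate or filter, and p-values were adjusted by Benjamini-Hochberg over the panel, per comparison, at 0.05, all two-sided. This model replaced the methods' analysis of variance with Tukey HSD, kept as an alternative, because groups hold 3 mice. The p-values measure the spread between mice, which the fit treats as independent. Tylosin was given through the nursing mother and litters are not given, so mice of a group may be littermates. The spread between litters was therefore not measured. Standard errors come from the same fit. The steps were tested on simulated data.

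Fkbp5, Nfil3 and the 9 gene lists were chosen with earlier results of these data known. Named genes are the pair, the nearest patterns, up to 3 rises and 3 falls past the threshold per list and comparison, and 13 regulators whatever their values, of which 1 is left unreported. Alternatives were Tukey HSD, an intensity trend with robust estimation, median centring, total count scaling, quantile normalization, a floor of 20 on the mean normalized count, log2 of the count plus 1, only the groups compared, and leaving out each mouse. Mice of different groups share no number, and the protein sequences were not used here.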

Additional observations from a re-analysis of the deposited data

Results flagged for a closer look

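Fkbp5 was higher in every SPF PAT mouse than in any SPF control mouse, and lower in every GF PAT mouse than in any GF control mouse. Groups did not overlap for 41% of the panel in the SPF comparison and 12.1% in the GF comparison. The tylosin differences of Fkbp5 lay 2.42 log2 units apart. This difference was not tested, since Fkbp5 was picked on these values. The tylosin effect in SPF mice differed from that in GF mice in limma for 95 of the 556 genes, 9.89% of the panel with a higher and 7.19% with a lower value of SPF less GF. The listed genes among them were 9 of the pathway lists and 4 of the marker lists. It was lower for Gzmb (-2.52, adjusted p = 0.00467), Gzma (-2.11, adjusted p = 0.0238), Ccl5 (-2.05, adjusted p = 0.0153), Il17a (-1.92, adjusted p = 0.0322), Cxcl10 (-1.85, adjusted p = 0.00467) and Irf8 (-0.55, adjusted p = 0.0289). It was higher for Il15 (1.07, adjusted p = 0.0103), Tlr5 (0.98, adjusted p = 0.0307) and Myd88 (0.61, adjusted p = 0.0498). Of the markers, Cd3d of T cells was lower (-2.16, adjusted p = 0.0417), and Ccl25 (1.01, adjusted p = 0.0136) and Btnl1 (0.90, adjusted p = 0.0321) of the epithelium and Pdgfrb of stroma (1.11, adjusted p = 0.0305) were higher. The median of the 12 leukocyte markers was -2.02 beside 0.01 over the panel, and its part in the values of the other genes was not tested. Gzmb, Ccl5, Cxcl10, Il15 and Ccl25 kept the call with any 1 of the 12 mice left out. Gzma lost it without 5 of the mice in turn, Irf8 without 6, Tlr5 without 7, Il17a without 8 and Myd88 without 9 (highest adjusted p = 0.0606, 0.0783, 0.0799, 0.0769 and 0.122). Btnl1 lost it without 7 and Cd3d and Pdgfrb without 8 (highest adjusted p = 0.0816, 0.102 and 0.0783). Median centring ended the calls of Irf8 (adjusted p = 0.99), Il17a (adjusted p = 0.0686) and Myd88 (adjusted p = 0.0521), and Tukey HSD that of Cd3d (adjusted p = 0.0601).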

How the results depend on the processing

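The signs of the Fkbp5 and Nfil3 differences held under 16 of 16 alternatives, except for Fkbp5 between the PAT groups (12 of 16, from -0.08 to 0.12) and the difference of the tylosin effects of Nfil3 (12 of 16, from -0.23 to 0.45). Most of these alternatives left out 1 mouse. That cannot turn a sign where the groups do not overlap or the mouse lies outside the comparison, so the held signs are little evidence of robustness. Median centring gave Fkbp5 -2.84 between the control groups, 1.91 for tylosin in SPF mice, -1.05 in GF mice and 2.97 for the difference of these, and gave Nfil3 1.45, -0.48 and, for the difference, 0.45. Quantile normalization gave Fkbp5 -2.74, 1.85 and, for the difference, 2.75. Median centring moved the median of all genes to -0.36 between the control groups, 0.34 for tylosin in SPF mice and -0.19 in GF mice. Tukey HSD gave 142 genes between the control groups in place of 234, 55 for tylosin in SPF mice in place of 146, and 1 between the PAT groups in place of 8. Median centring also gave 1 there, the gene being Nfil3 under both. Nfil3 was picked on this comparison, so these calls are no support for it. With only the groups compared the counts were 76 for tylosin in SPF mice and 0 between the PAT groups. Leaving out 1 mouse gave 64 to 232 genes for tylosin in SPF mice (64 without SPF control mouse 2, 75 without SPF control mouse 7, 73 and 89 without SPF PAT mice 27 and 26, 232 without SPF PAT mouse 21). It gave 35 to 217 in place of 95 for the difference of the effects, the ends being without SPF PAT mice 27 and 21, 0 to 1 in GF mice (Irf4, without GF control mouse 37) and 1 to 11 between the PAT groups. Ranking by Pearson correlation kept 1 of the 5 genes nearest to Fkbp5 and 2 of those nearest to Nfil3, and leaving out a mouse kept 4 to 5 and 3 to 5. No alternative was compared for the genes nearest with the sign turned, such as Irf4. The causes were not tested. Alternatives for SPF PAT against GF control mice, for the list counts and for the place along the way between control means were added after seeing the data. Total count scaling was fitted over the panel. It is used here for the pair only, and genes past the threshold were not counted under it. No paired analysis was possible because mice of different groups share no number. With 3 mice per group and genes down to a few counts, small differences were not detectable.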
